A study of Mus musculus with 10 samples.

Results

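Of the genes that encode the enzymes of heme synthesis, 7 were examined here: *Alas1*, *Alad*, *Uros*, *Urod*, *Cpox*, *Ppox* and *Fech*, out of 12148 genes in the count table of the series. They were chosen by pathway and selected on CPM values whose difference between the groups was already known, so the values below that compare the groups are a description of these genes and carry no test. In these germ-free livers *Alas1*, the entry enzyme, was 2.85-fold higher after microbiota-derived extracellular vesicles (MEV) than after PBS, while the means of the 6 later members lay within 0.24 of those of the PBS livers on the log2 scale. *Alas1* also varied more among the PBS livers than nearly every other gene.

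Heme is made in a chain that starts and ends in the mitochondrion and passes through the cytosol. 5-aminolevulinate synthase joins glycine and succinyl-CoA, *Alad* makes porphobilinogen, *Uros* closes the tetrapyrrole ring, *Urod* and *Cpox* trim its side chains, *Ppox* oxidises it to protoporphyrin IX, and *Fech* inserts the iron. In the liver, where much of the heme goes into cytochrome P450 enzymes, the first step is carried out by ALAS1 and limits the rate of the pathway. ALAS1 is held down by heme itself and is known to be raised in fasting through the coactivator PGC-1α, with FOXO1 and HNF4α among the factors at its gene, and by xenobiotic receptors such as PXR. Erythroid cells use a separate first enzyme, ALAS2.

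The series holds liver RNA from 10 wild-type germ-free C57BL/6 mice, which have no gut bacteria of their own. The GF+MEV group consisted of 5 mice that received 80 µg of MEV in PBS by mouth, and the GF+PBS group of 5 mice that received the PBS vehicle, on 2 days a week for 3 weeks. The vesicles were purified from the cecal content and stool of control mice, so a mixture of unnamed bacteria is their source. The sex and age of the germ-free mice and the hour at which livers were taken are not given in the sources used here. RNA came from whole liver, in which fewer cells of a type and less RNA per cell cannot be told apart, and p-values measure the spread between these 10 mice.

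Libraries held 15746119 to 20523649 counts on genes, and values are given as CPM, the counts of a gene scaled to a common library size, here by the TMM method. A gene was called when the adjusted p of edgeR over all 12147 tested genes was under 0.05, which called 7.64% of them, 4.12% as higher and 3.52% as lower in GF+MEV. Of the called genes 53.9% were higher, against 41.2% with upper-quartile scaling, which moved the median log2 fold change of all genes from -0.0037 to -0.0459. Some libraries stood apart. Over the 300 genes that varied most among GF+MEV livers, the root mean square log2 difference was 0.43 to 0.49 between GF+PBS replicates 1 and 3 and between 4 and 5, and 0.65 to 0.85 for the other 8 GF+PBS pairs. In GF+MEV replicate 2, CT010467.1 reached 78170 CPM, against 1280 to 3118 CPM in the other 9 livers, and *Lars2* and Gm23935 were high in the same library. The tissue carried its hepatocyte genes, with *Alb* at 76250 CPM ± 7005 in GF+MEV and 78080 CPM ± 4590 in GF+PBS (SD, n = 5 each).

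The start region of *Alas1* is shown because this was the member with the large difference, and that of *Uros* because it was the other member whose window held the same kind of motif. RefSeq windows of GRCm38.p6, from 250 bases before to 50 after each annotated start, were searched for 6 of the 7 members (not *Fech*), with 9 windows in all. The sequences give the 250 bases before the start, for *Alas1* at the second of its 2 annotated starts (chr9:106247731-106247980, minus strand) and for *Uros* at its first (chr7:133709296-133709545, minus strand). Capitals mark exact motif matches.
Alas1: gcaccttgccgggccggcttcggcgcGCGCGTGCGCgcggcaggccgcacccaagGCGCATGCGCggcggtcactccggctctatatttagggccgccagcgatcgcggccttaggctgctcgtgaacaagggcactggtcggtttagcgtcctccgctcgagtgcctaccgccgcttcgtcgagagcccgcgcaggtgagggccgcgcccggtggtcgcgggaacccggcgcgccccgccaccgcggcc
Uros: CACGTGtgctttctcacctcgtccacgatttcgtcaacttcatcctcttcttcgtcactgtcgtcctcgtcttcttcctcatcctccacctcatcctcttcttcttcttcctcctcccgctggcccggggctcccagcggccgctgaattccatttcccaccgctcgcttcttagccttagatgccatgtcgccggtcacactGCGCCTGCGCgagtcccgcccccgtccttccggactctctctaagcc
The first capitals in *Alas1* and the match that follows them are NRF1 motifs, searched like all others on both strands, at bases 27 to 36 and 56 to 65 of the window. The *Uros* stretch opens with an E-box (CACGTG) and holds 1 NRF1 motif from base 204 to base 213. NRF1, nuclear respiratory factor 1, is a regulator of nuclear genes for mitochondrial proteins.

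Among all 32851 RefSeq windows, 4.6% held the NRF1 motif and 7.15% the E-box. An E-box was also found in both *Alad* windows and in the *Urod* window, whereas the *Cpox* and *Ppox* windows held none of the motifs searched. No window of the 6 members held the FOXO motif TGTTTAC (3.65% of all windows), the cAMP response element TGACGTCA (1.79%), the REV-ERB/ROR motif AGGTCA (16.3%) or the glucocorticoid response element (0.475%). Over its full 300 bases this *Alas1* window was 73.3% G and C, against a median of 52.7% over all windows. These are letter matches in short windows, with no measurement of binding, and an absent match says only that the letters are not there.

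*Alas1* (ENSMUSG00000032786) lies on chromosome 9 from 106233455 to 106248654 on the minus strand of GRCm38. In GF+MEV replicates 1 to 5 its level was 1020, 1295, 1363, 1126 and 1094 CPM. In GF+PBS replicates 1 to 5 it was 172, 755, 169, 488.5 and 482 CPM. Every GF+MEV liver lay above every GF+PBS liver, and the GF+PBS livers fell into a low pair, replicates 1 and 3, a middle pair, replicates 4 and 5, and replicate 2 on top. The mean was 1180 CPM ± 144 in GF+MEV and 413 CPM ± 247 in GF+PBS (SD, n = 5 each). In the edgeR fit this is a difference of 1.51 on the log2 scale (log2 fold change). The standard error (SE) of 0.44 is that of the difference between the group means of log2 CPM. The lowest GF+MEV liver stood 1.35-fold above the highest GF+PBS liver. Leaving out GF+PBS replicate 2 raised the log2 fold change to 1.85, and leaving out replicate 3 lowered it to 1.31. With the alike GF+PBS libraries summed into 1 sample each it was 1.34, and without GF+MEV replicate 2 it was 1.48. Antisense to *Alas1*, 4930500F10Rik shares 7.53% of its exon bases and has no row in the count table, and whether the reads were counted by strand is not given in the sources used here.

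The spread of *Alas1* was itself unequal between the groups. Its standard deviation in log2 CPM was 0.977 in GF+PBS, at the 99.8th percentile of the 11834 genes averaging 1 CPM or more, and 0.174 in GF+MEV, at the 59.8th percentile. The highest GF+PBS liver exceeded the lowest by 4.46-fold, while in GF+MEV the corresponding ratio was 1.34-fold. With 2843 to 28231 reads per library on *Alas1*, counting error was 1.88% at the lowest count, far under either spread.

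**Figure D1:**
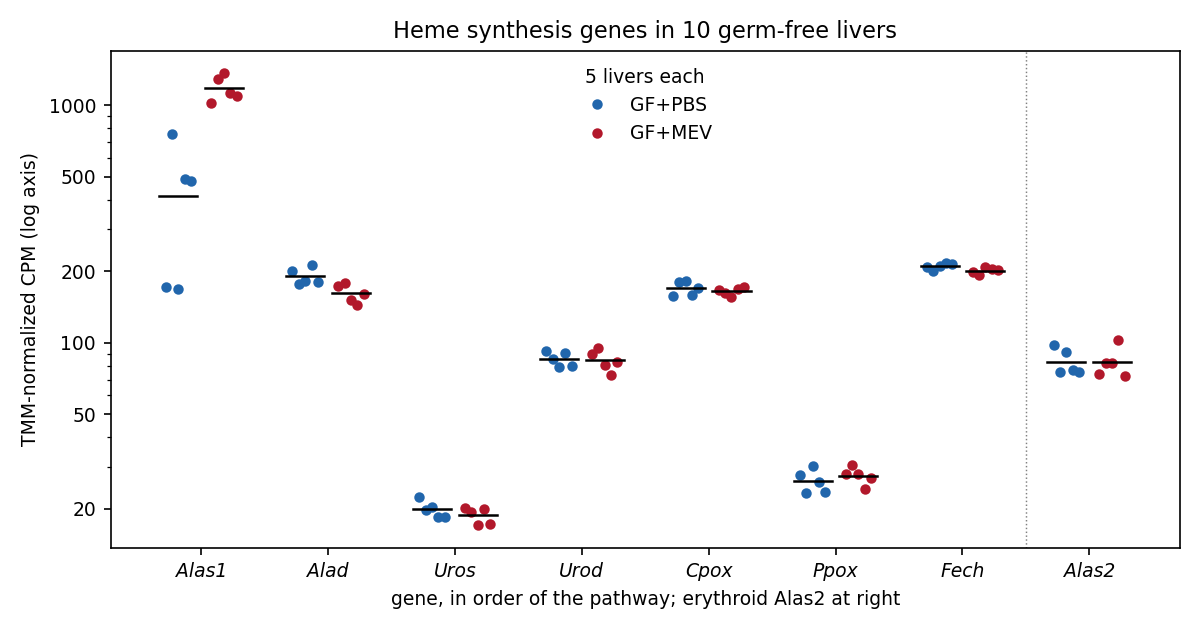
Each point is 1 liver and gives the TMM-normalized CPM on a log axis, with GF+PBS in blue, GF+MEV in red and a bar at the mean of 5 livers, for the genes in pathway order and erythroid *Alas2* at the right. *Alas1* alone has its groups apart, with GF+PBS spread from 169 to 755 CPM and GF+MEV between 1020 and 1363 CPM.

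The plot of CPM by liver shows how differently the first enzyme and the rest behaved. *Alad* (ENSMUSG00000028393, chromosome 4, 62509169 to 62519918), whose product condenses 5-aminolevulinate into porphobilinogen, was at 174, 178, 151, 144 and 161 CPM in GF+MEV and 200, 177, 182, 212.5 and 180.5 CPM in GF+PBS. All but 1 of the GF+MEV values lay below the GF+PBS values, and the exception, GF+MEV replicate 2, lay just above the lowest GF+PBS liver. The means were 162 CPM ± 14.4 and 190.5 CPM ± 15.2, a log2 fold change of -0.24 (standard error 0.08). This was the next largest difference among the members and it kept its sign in each of 18 other settings, from -0.28 to -0.20.

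*Uros* (ENSMUSG00000030979, chromosome 7, 133686243 to 133710072), the ring-closing uroporphyrinogen III synthase, had the fewest reads of the members. It was at 20.2, 19.4, 17.04, 19.9 and 17.3 CPM in GF+MEV and 22.3, 19.7, 20.4, 18.4 and 18.4 CPM in GF+PBS. The groups overlapped widely, and the log2 fold change was -0.08 (standard error 0.07). *Uros* rested on 269 to 402 reads per library, for which counting alone gives a coefficient of variation of 6.1% at the lowest count, close to the 7.97% and 8.18% seen within the groups.

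*Urod* (ENSMUSG00000028684, chromosome 4, 116989965 to 116994413), the decarboxylase of the ring's acetate side chains, was at 89.5, 94.7, 80.8, 73.4 and 83.0 CPM in GF+MEV and 92.6, 85.1, 79.0, 90.6 and 80.1 CPM in GF+PBS. The highest and the lowest liver were both GF+MEV. Its log2 fold change of -0.02 (standard error 0.08) changed sign in 3 of the 18 other settings.

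*Cpox* (ENSMUSG00000022742, chromosome 16, 58670292 to 58717636), coproporphyrinogen oxidase, returns the pathway to the mitochondrion. It was at 166.5, 162, 155, 168 and 172 CPM in GF+MEV and 158, 179, 181, 160 and 171 CPM in GF+PBS, and each GF+MEV liver but replicate 3 lay inside the GF+PBS range. Its log2 fold change was -0.04 (standard error 0.05). *Ppox* (ENSMUSG00000062729, chromosome 1, 171275990 to 171281186), protoporphyrinogen oxidase, was at 28.1, 30.4, 27.9, 24.2 and 27.0 CPM in GF+MEV and 27.9, 23.3, 30.4, 26.0 and 23.4 CPM in GF+PBS. Apart from *Alas1* it was the only member with a mean above that of GF+PBS, by 0.07 on the log2 scale (standard error 0.09), and its groups overlapped. *B4galt3*, on the other strand, covers 17.52% of the *Ppox* exon bases and differed by 0.06 on the log2 scale (edgeR adjusted p = 0.8).

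*Fech* (ENSMUSG00000024588, chromosome 18, 64452914 to 64490251), ferrochelatase, closes the pathway by placing iron in the ring. It was at 199.5, 193, 208, 205 and 203 CPM in GF+MEV and 208, 200, 211, 218 and 214 CPM in GF+PBS. The groups overlapped, and GF+PBS replicate 2, the liver with the most *Alas1* in its group, had the least *Fech* of it. The log2 fold change was -0.06 with a standard error of 0.03. *Fech* was among the steadiest genes of these livers, its standard deviation in log2 CPM lying at the 3.29th percentile of 11834 genes in GF+PBS and the 1.56th in GF+MEV.

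**Figure D2:**
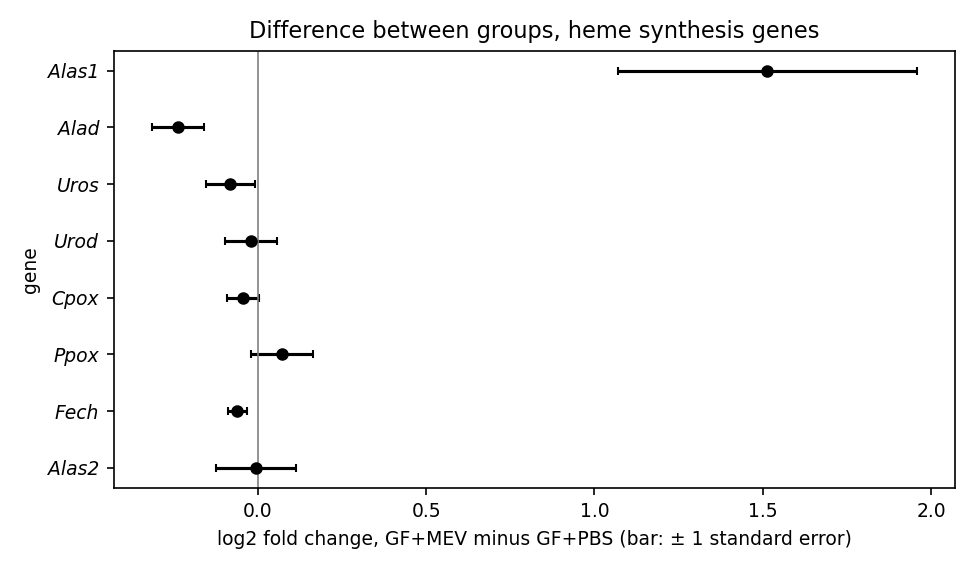
Points are edgeR log2 fold changes of GF+MEV over GF+PBS, for the 7 members with *Alas2*. Bars are 1 standard error either way (5 livers a group), taken from the difference between group means of log2 CPM. *Alas1* stands at 1.51 with a standard error of 0.44, and every other gene lies between -0.24 and 0.07.

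Of the 7 members, 2 lay above 0 and 5 below, with a median log2 fold change of -0.04 against -0.0037 for all tested genes. In the fit over all genes 1 member, *Alas1*, was called as higher and none as lower, beside 7.64% of all genes, and 1 of 7 had no overlap between the groups, beside 7.39% of all genes. Since the members were picked with this contrast in view, nothing is read from these counts. *Alad* was called too with DESeq2, with upper-quartile scaling and without GF+MEV replicate 2, where its log2 fold change was -0.27.

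Summed without *Alas1*, the 6 later members came to 634 to 677 CPM in GF+MEV and 685 to 725 CPM in GF+PBS, ranges that did not meet. On its own each of the 6 overlapped between the groups, and *Alad*, at 162 CPM in GF+MEV and 190.5 CPM in GF+PBS, differed most. Without TMM scaling the sums were 603 to 662 and 709 to 730 CPM, and the order of the groups was the same. The total over all 7 members nevertheless had a median of 1760 CPM in GF+MEV and 1169 CPM in GF+PBS, because *Alas1* made up a larger part of it. *Alas1* contributed 64.0% ± 3.06 of the reads on the members in GF+MEV livers and 34.6% ± 14.6 in GF+PBS livers (SD, n = 5 each). *Fech* in turn went from 19.6% of the members' reads in GF+PBS to 11.01% in GF+MEV, and *Alad* from 17.8% to 8.83%.

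The ratio of *Alas1* to the rest within a library needs no scaling between libraries. For each 100 reads on the later members, *Alas1* had 151, 191, 213, 177.5 and 165 reads in GF+MEV replicates 1 to 5 and 24.3, 110, 24.0, 67.4 and 70.1 reads in GF+PBS replicates 1 to 5. In all 5 GF+MEV livers *Alas1* outnumbered the other 6 members together. In GF+PBS it did so only in replicate 2.

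Levels of different genes were compared per kilobase of annotated exon. In GF+PBS *Alad* came first at 102 ± 8.11 CPM per kilobase, followed by *Alas1* at 67.0 ± 40.1, and their livers overlapped, since *Alas1* spanned 27.4 to 122 CPM per kilobase and *Alad* 94.8 to 114. In GF+MEV *Alas1* was first at 191 ± 23.3 CPM per kilobase, with its lowest liver at 165, and *Alad* second at 86.4 ± 7.71, with its highest at 95.3. Below them the order was the same in both groups: in GF+PBS *Urod* stood at 33.0 ± 2.34, *Cpox* at 25.5 ± 1.62, *Fech* at 15.2 ± 0.496, *Ppox* at 5.80 ± 0.669 and *Uros* at 5.55 ± 0.454 CPM per kilobase (SD, n = 5 each). *Ppox* and *Uros* overlapped in GF+PBS, whereas *Urod*, *Cpox* and *Fech* each kept clear of the next. This order depends on the length taken, because *Alas1* has 6174 exon bases in all annotated transcripts but 3399 in the longest one. With the longest transcript, the mean of *Alas1* was first in both groups, at 122 CPM per kilobase in GF+PBS and 347 in GF+MEV. *Alad* was then at 108 in GF+PBS and 91.4 in GF+MEV, and in GF+PBS the livers of *Alas1* and *Alad* again overlapped. *Uros* passed *Ppox*. *Urod* and *Cpox* then lay close, at 57.4 and 54.8 CPM per kilobase in GF+PBS, and their livers overlapped.

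*Alas2* (ENSMUSG00000025270, chromosome X), the erythroid form of the first enzyme, was at 74.0, 82.5, 81.9, 102 and 72.7 CPM in GF+MEV and 97.5, 75.3, 91.0, 76.4 and 75.1 CPM in GF+PBS. Its groups overlapped, and its log2 fold change was -0.01 (SE 0.12 and edgeR adjusted p = 0.984).

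Red cells in the tissue also carry heme enzymes. Of 11 erythroid markers 6 were tested, *Alas2* among them, and none was called by edgeR, beside 7.64% of all genes. Among the 6, 1 had an unadjusted p under 0.05, as had 2572 of all 12147 tested genes. The median log2 fold change of the 6 was -0.11. Their sum ran from 255 to 393 CPM in GF+MEV and from 281 to 476 CPM in GF+PBS, overlapping ranges, and *Slc4a1*, *Epb42*, *Gata1* and *Rhag* had no row in the table and *Ahsp* matched no annotated symbol. Of 8 hepatocyte markers *Cps1*, *Ass1* and *Tat* were called as higher, beside 4.12% of all genes, and the other 5 were not called. *Tat* was at 3652 CPM in GF+MEV and 850 CPM in GF+PBS (log2 fold change 2.10, edgeR adjusted p = 7.64e-08). The sum of all 8, most of it *Alb*, was 95470 to 115100 CPM in GF+MEV and 95480 to 112100 CPM in GF+PBS. Other cell types were represented by few reads. Of 2 cholangiocyte markers tested *Krt19* was called as higher (sum 2.44 to 18.1 CPM in GF+MEV, 1.42 to 3.39 CPM in GF+PBS). The other, *Sox9*, lay lower and was not called (log2 fold change -0.98, edgeR adjusted p = 0.103), and *Epcam* and *Krt7* were not tested. Of 4 endothelial markers *Lyve1* was called as higher and *Clec4g* as lower (68.2 to 103 and 80.5 to 104.5 CPM). Of 3 leukocyte markers *Cd79a* and *Cd79b* were called as lower (6.83 to 13.9 and 10.99 to 14.5 CPM). None of the Kupffer cell markers (155.8 to 301 and 185 to 270 CPM), stellate cell markers (126.5 to 201 and 169 to 177.5 CPM) or muscle markers (223.5 to 310 and 190.5 to 664 CPM) was called by edgeR, and 2 of these 12 had an unadjusted p under 0.05. The part of these cells in the values of the heme genes was not tested.

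Carriers and helper factors of the pathway showed no called gene, beside 7.64% of all genes. With so few genes, nothing is read from this. Of 13 tested, which bring substrates and porphyrins across membranes, hold the enzymes in complexes or degrade ALAS1, none passed edgeR's threshold. Of the 13, 2 had an unadjusted p under 0.05, as had 2572 of all 12147 tested genes. The log2 fold changes of the 13 ran from -0.18 to 0.13 with a median of -0.02. The most abundant, *Pgrmc1*, whose product binds ferrochelatase, was at 1349 CPM ± 73.1 in GF+MEV and 1458 CPM ± 57.9 in GF+PBS, and was not called (log2 fold change -0.11, edgeR adjusted p = 0.286). *Lonp1*, a mitochondrial protease that degrades ALAS1, was at 234 CPM ± 12.1 and 229 CPM ± 14.4 (log2 fold change 0.03, edgeR adjusted p = 0.852).

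Among the livers of one group, *Alas1* did not move with the later enzymes. After group means were removed, its correlation over the 10 livers with the other 6 members ran from -0.683 for *Ppox* to 0.047 for *Cpox*. The 15 pairs of later members ranged from -0.484 to 0.901, the highest being *Alad* with *Urod*. These are descriptions over 10 livers whose genes share library and scaling. The standard deviation of *Alas1* in log2 CPM was 0.977 in GF+PBS and 0.174 in GF+MEV. Correlations of deviations, here and below, therefore rest mainly on the GF+PBS livers, of which replicates 1 and 3, and 4 and 5, were alike. *Clpx*, which encodes the mitochondrial unfoldase that acts on ALAS, had a correlation of -0.836 with *Alas1*: it was at 188.5 and 186 CPM in GF+PBS replicates 1 and 3, where *Alas1* was lowest, while replicates 2, 4 and 5 were at 90.4 to 115 CPM. *Clpx* did not differ past the threshold between the groups (log2 fold change -0.02, SE 0.25, edgeR adjusted p = 0.979).

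**Figure D3:**
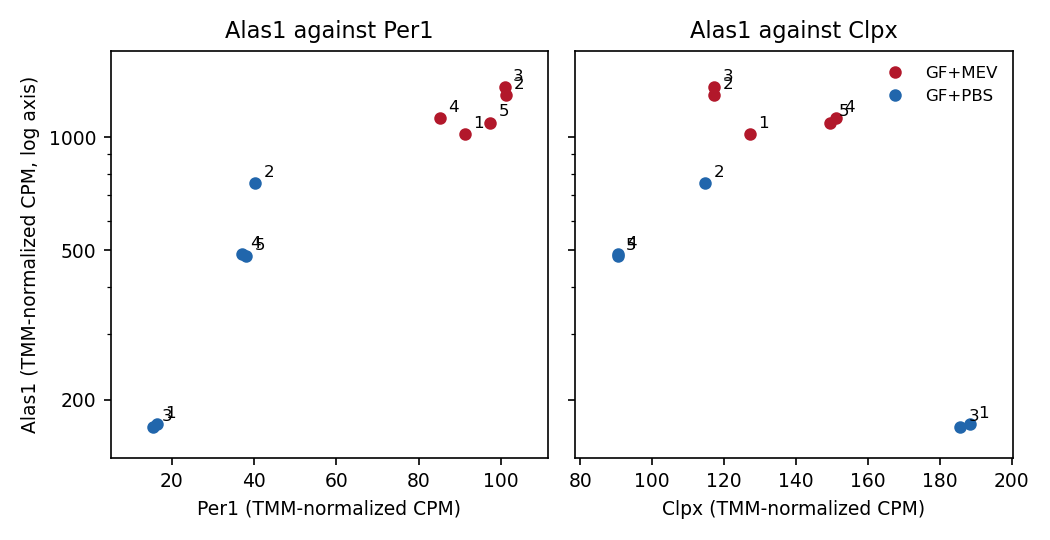
Each point is 1 liver, numbered by replicate, with *Alas1* in TMM-normalized CPM on the log vertical axis and *Per1* or *Clpx* in TMM-normalized CPM on the horizontal axis; GF+PBS is blue and GF+MEV red. *Per1* climbs with *Alas1* through both groups, and GF+PBS replicates 1 and 3 have the least *Alas1* and *Per1* together with the most *Clpx*.

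The genes whose log2 CPM most resembled *Alas1* over the 10 livers, of 11833 compared, were *Klf13* (r = 0.982), *Gpt2* (0.978), *Per1* (0.978), *Ciart* (0.969) and *Irf2* (0.968). *Per1* and *Ciart* belong to the circadian clock, *Klf13* and *Irf2* encode transcription factors, and *Gpt2* an alanine aminotransferase. Their log2 fold changes ran from 0.36 for *Irf2* to 2.0 for *Ciart*, a direction that the choice by likeness to *Alas1* over both groups had already fixed. When only deviations from the group means were used, the closest were *Per1* (r = 0.968), *Mtss1* (0.967), *Per3* (0.956), *Tob2* (0.954) and *Ddo* (0.953). *Per1* was at 91.2, 101, 101, 85.2 and 97.4 CPM in GF+MEV and 16.4, 40.3, 15.5, 37.1 and 38.1 CPM in GF+PBS, with replicates 1 and 3 at the bottom as for *Alas1*. *Per3* repeated the order inside GF+PBS, at 19.6 and 23.1 CPM in replicates 1 and 3 and 57.7 to 68.1 CPM in the others, but its GF+MEV livers were at 26.5 to 43.4 CPM and its difference between groups was not called (log2 fold change -0.46, edgeR adjusted p = 0.404). The plot of *Alas1* against *Per1* and *Clpx* shows these orders liver by liver.

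Of 18 known regulators of *Alas1*, a list drawn up with earlier results of these data known, 5 were called as higher (4.12% of all genes were), 1 as lower (3.52% of all genes) and 12 were not called, with a median log2 fold change of 0.15 against -0.0037 over all genes. *Ppargc1a*, which encodes PGC-1α, was at 20.8, 23.1, 19.7, 22.1 and 16.5 CPM in GF+MEV and 5.78, 6.84, 6.73, 11.9 and 13.0 CPM in GF+PBS. The groups did not overlap (log2 fold change 1.21, SE 0.25, edgeR adjusted p = 0.00129). Unlike *Alas1*, *Ppargc1a* was highest in GF+PBS replicates 4 and 5, while replicate 2 was near replicates 1 and 3.

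*Foxo1*, the forkhead factor restrained by insulin, was at 37.3 to 42.5 CPM in the GF+MEV livers, and at 17.6, 28.9, 21.6, 24.5 and 23.0 CPM in GF+PBS replicates 1 to 5. It was higher without overlap (log2 fold change 0.79, SE 0.12, edgeR adjusted p = 0.000205), and among GF+PBS livers its extremes were replicates 1 and 2. *Hnf4a*, the hepatocyte nuclear factor, lay between 682 and 775 CPM in GF+MEV livers and between 489 and 570 CPM in GF+PBS livers (log2 fold change 0.45, SE 0.06, edgeR adjusted p = 0.000361). *Nr1i2*, the xenobiotic receptor PXR, was at 80.1 to 120 CPM in GF+MEV and 59.1 to 76.3 CPM in GF+PBS, also without overlap (log2 fold change 0.65, SE 0.12, edgeR adjusted p = 0.000864).

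*Ppargc1b*, a coactivator related to PGC-1α, was at 11.04, 13.3, 16.1, 9.21 and 13.1 CPM in GF+MEV and 6.22, 7.62, 6.43, 7.83 and 11.8 CPM in GF+PBS. GF+PBS replicate 5 reached into the GF+MEV range, and the call (log2 fold change 0.66, SE 0.21, edgeR adjusted p = 0.0352) was lost when any of GF+MEV replicates 2, 3 and 5 or GF+PBS replicates 1 to 4 was left out, with adjusted p from 0.0616 to 0.0985, and with the alike GF+PBS libraries summed (adjusted p = 0.0544). *Nr1d1*, which encodes the heme-binding clock repressor REV-ERBα, was the gene called as lower, at 100 to 125 CPM in GF+MEV and 142 to 168 CPM in GF+PBS (log2 fold change -0.48, SE 0.07, edgeR adjusted p = 0.000592). It shares 8.55% of its exon bases with *Thra* on the opposite strand, which differed by -0.13 on the log2 scale (edgeR adjusted p = 0.476). *Nrf1*, whose motif was found before the second but after the first annotated start of *Alas1*, was at 11.03 CPM ± 1.24 in GF+MEV and 11.5 CPM ± 1.12 in GF+PBS (log2 fold change -0.05, edgeR adjusted p = 0.832).

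**Figure D4:**
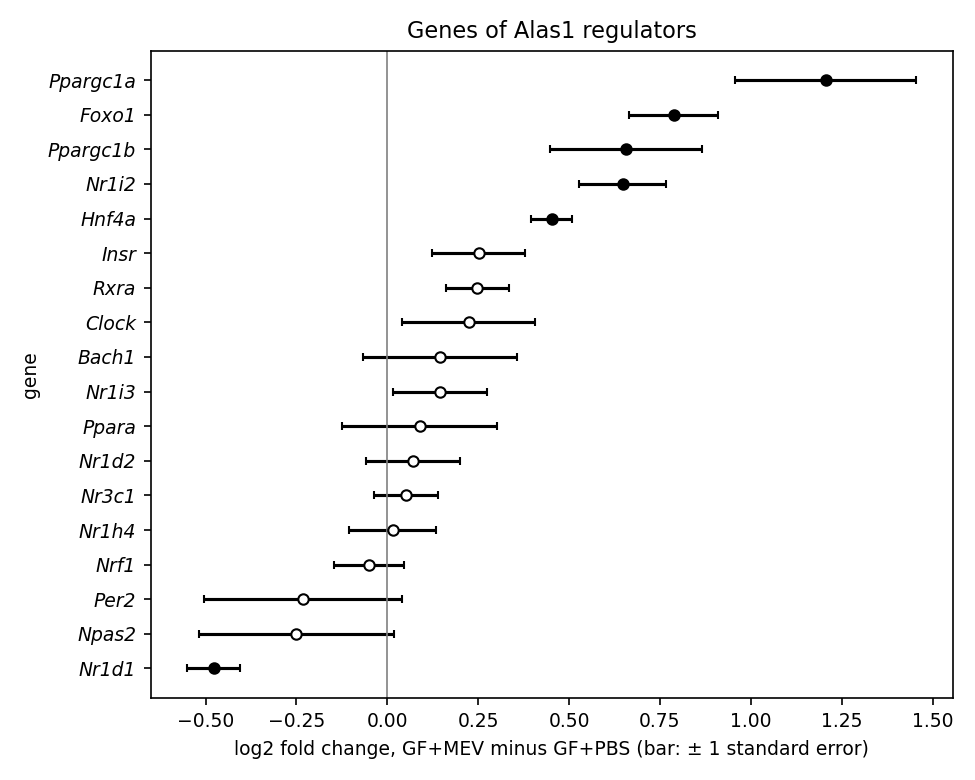
Points are edgeR log2 fold changes of GF+MEV over GF+PBS for the 18 genes of *Alas1* regulators. Bars are 1 standard error either way (5 livers a group), taken from the difference between group means of log2 CPM. Filled points passed the edgeR threshold and open points did not. The filled points run from *Ppargc1a* at 1.21 down to *Hnf4a* at 0.45 on the right of 0, and *Nr1d1* at -0.48 is the filled point on the left.

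The plot of regulators by log2 fold change places the 12 uncalled genes between these. Deviations of called and uncalled regulators from their group means tracked those of *Alas1* to different degrees over the 10 livers, again mainly the GF+PBS ones. The correlation was 0.885 for *Per2*, 0.831 for *Foxo1*, 0.75 for *Ppara* and 0.501 for *Ppargc1a*, but -0.13 for *Hnf4a* and -0.55 for *Nr1d1*. *Per2* and *Ppara* were not called (log2 fold changes -0.23 and 0.09, edgeR adjusted p = 0.577 and 0.815).

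Heme breakdown and transport, a list of the same origin, had 3 called genes of 11 (7.64% of all genes were called), 2 higher and 1 lower, and a median log2 fold change of 0.02. Only 1 was called under the replicate block, without GF+MEV replicate 5, without GF+PBS replicate 3, or with the alike GF+PBS libraries summed. *Hp*, haptoglobin, the plasma carrier of free hemoglobin, was at 3334, 3677, 3316, 3543 and 3047 CPM in GF+MEV and 2883, 2541, 2685, 2968 and 2590 CPM in GF+PBS. The groups did not overlap (log2 fold change 0.31, SE 0.06, edgeR adjusted p = 0.0115). *Hmox2*, the constitutive heme oxygenase, was at 32.4 to 37.3 CPM in GF+MEV and 26.6 to 30.3 CPM in GF+PBS (log2 fold change 0.25, SE 0.05, edgeR adjusted p = 0.0229). This call was lost with the replicate number as a block (adjusted p = 0.067) and without GF+MEV replicate 5, GF+PBS replicate 2 or GF+PBS replicate 3 (adjusted p = 0.0671, 0.0595 and 0.0551), with upper-quartile scaling (0.0658) and with the alike GF+PBS libraries summed (0.0561). *Cdip1* covers 40.23% of the *Hmox2* exon bases on the other strand and was itself called as higher (118 against 62.3 CPM, log2 fold change 0.93, edgeR adjusted p = 1.64e-05), so reads from the pair cannot be told apart if strand was not used.

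*Blvrb*, a biliverdin reductase, was at 132, 141, 117, 115 and 122 CPM in GF+MEV and 166, 132, 151, 170 and 142 CPM in GF+PBS, with GF+MEV replicates 1 and 2 inside the GF+PBS range. Its call as lower (log2 fold change -0.28, SE 0.09, edgeR adjusted p = 0.046) was lost with the replicate block (adjusted p = 0.0967) and on leaving out any of GF+MEV replicates 1, 3, 4 and 5 or GF+PBS replicates 1, 3 and 4 (adjusted p from 0.0614 to 0.119), with RLE scaling (0.0505) and with the alike GF+PBS libraries summed (0.145). *Hmox1*, the inducible heme oxygenase, was at 11.04 CPM ± 2.65 in GF+MEV and 13.1 CPM ± 2.23 in GF+PBS and was not called (log2 fold change -0.24, edgeR adjusted p = 0.411).

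Genes for heme-containing proteins, the users of the product and again listed with earlier results known, had 4 called of 28 (7.64% of all genes were), 3 lower and 1 higher, with a median log2 fold change of -0.06. With the alike GF+PBS libraries summed, 2 were called. *Cyp2a5*, a cytochrome P450 of coumarin oxidation, was at 859, 980, 805, 815 and 935 CPM in GF+MEV and 1087, 1355, 1107, 1668 and 1561 CPM in GF+PBS. Every GF+MEV liver was below every GF+PBS liver (log2 fold change -0.63, SE 0.14, edgeR adjusted p = 0.00315). The near-identical *Cyp2a4* was also called as lower, at 3.55 against 16.5 CPM (log2 fold change -2.24, edgeR adjusted p = 0.00821), and counts of these paralogs are uncertain.

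*Cyp2c29* was lower (1997 CPM ± 346 against 2727 CPM ± 259, log2 fold change -0.45, edgeR adjusted p = 0.0191), but not past the threshold without GF+PBS replicate 3 (adjusted p = 0.0521) or with the alike GF+PBS libraries summed (0.0877). *Cyb5b*, a cytochrome b5 of the mitochondrial outer membrane, was at 485 CPM ± 47.5 in GF+MEV and 604 CPM ± 19.96 in GF+PBS (log2 fold change -0.32, edgeR adjusted p = 0.0104), a call lost with the alike GF+PBS libraries summed (adjusted p = 0.0667). *Cyp27a1*, the sterol 27-hydroxylase of bile acid synthesis, was the higher one, at 898 CPM ± 55.0 against 745 CPM ± 42.6 (log2 fold change 0.27, edgeR adjusted p = 0.0152), and not past the threshold with upper-quartile scaling (adjusted p = 0.0504). The most abundant P450 of the list, *Cyp2e1*, was at 8718 CPM ± 525 in GF+MEV and 8599 CPM ± 125 in GF+PBS and was not called (log2 fold change 0.02, edgeR adjusted p = 0.887).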

How the data were processed

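Liver RNA of 10 germ-free mice (5 GF+MEV, 5 GF+PBS) was sequenced after Trizol extraction and NEBNext Ultra library preparation. Per the labels and the study's methods, the authors demultiplexed with bcl2fastq 2.17, aligned to GRCm38 with STAR 2.7.3a, counted reads per gene with HTSeq (version and strand setting not given in the sources used here), removed genes with fewer than 20 counts in all, and deposited the unscaled counts, by Ensembl identifier. The table held 5 columns that match no described sample, which were not used. The columns of the 10 libraries were joined to the labels by library name.

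Symbols, positions and exon lengths came from GENCODE M21, and 10 of 12148 genes had no symbol. Genes reaching 20 counts in total over the 10 libraries were fitted with edgeR 4.0.16 in R 4.3.3 (TMM, quasi-likelihood, treatment group alone, Benjamini-Hochberg adjustment, threshold 0.05). Log2 fold changes came from the edgeR fit. Standard errors (SE) are those of the difference between group means of log2 CPM, computed with 2 prior counts, which is another estimate. For *Alas1*, limma-voom, which works on log2 CPM, gave 1.75 against 1.51. The lowest chi-square per gene between libraries of a group was 6.36, for GF+PBS replicates 1 and 3, which is larger than counting error alone gives. Each library was used as its own sample, though such a value cannot show that the samples were independent. Library totals limit precision only for low genes such as *Uros*, and counting error is all that such figures cover. Steps across all genes were tested on simulated data.

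The members and the gene lists were chosen with earlier results of these data known. Named genes were the members, *Alas2*, the called genes of each list (at most 6 by p-value, otherwise the most abundant 2), the 5 genes nearest to *Alas1* by each measure of likeness, and genes needed to describe a library or an overlap, apart from items not reported here; *Clpx*, *Hmox1*, *Nrf1*, *Per2*, *Ppara* and *Cyp2e1* were added after their values were seen. Alternatives were DESeq2 1.42.0, limma-voom (limma 3.58.1), RLE and upper-quartile scaling, other filters (none, or 10 counts as a minimum for each library), a replicate block, each library left out, summed GF+PBS libraries and another gene length.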

Additional observations from a re-analysis of the deposited data

Results flagged for a closer look

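In GF+MEV replicate 2 the TMM scaling factor was 0.890, while its group otherwise ranged from 0.978 to 1.01, a gap large enough to set this library apart from its group by Dixon's criterion. Of 68 groups of values looked at in this way it was the only one to stand out, where chance would give about 3.4. The same library held the high counts of CT010467.1, *Lars2* and Gm23935. Without it the log2 fold change of *Alas1* was 1.48 and that of *Alad* -0.27, against 1.51 and -0.24 with all livers.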

How the results depend on the processing

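In 18 other settings all 126 member values stayed within 1 SD of those given, the SD being that of log2 CPM among livers. Leaving out 1 of 5 livers can hardly move a value that far, so this is no check of those settings. *Urod* changed sign in 3 settings and still counted as within 1 SD. *Alas1* was called in each setting, which carries no test because the members were chosen with this contrast known. The number of members called rose from 1 to 2, with *Alad* added, under DESeq2, under upper-quartile scaling and without GF+MEV replicate 2, so that it ran from 1 to 2 over the omitted libraries. With GF+PBS replicates 1 and 3, and 4 and 5, summed, called genes fell from 928 to 561, those lower from 428 to 209, and those in the other heme-related lists from 13 to 8. With single libraries left out, 696 to 926 genes were called, 388 to 561 as higher and 304 to 397 as lower, and 10 to 14 in the other lists. Under the replicate block *Alas1* had a log2 fold change of 1.74, and heme breakdown kept 1 called gene of 3; of the 25 named non-members refitted in every setting, the block moved *Hmox2* and *Blvrb* across the threshold and no other. Whether the replicate numbers pair the mice is not given in the sources used here. Deviations of same-numbered livers correlated between -0.2 and 0.189. Of the GF+MEV livers, only replicate 1 correlated best with the GF+PBS liver of its own number. These values cannot show whether mice were paired. Of 450 values of 25 named non-members, 420 kept their side of the threshold, 29 lost the call and 1 gained it (*Mtss1* without GF+PBS replicate 2, adjusted p = 0.0216). None changed direction while called in either fit. Uncalled genes near 0 did change direction, as *Alas2* did without GF+PBS replicate 1 (log2 fold change 0.06 against -0.01). The causes were not tested.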
